A study of Mus musculus with 15 samples.

Results

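Expression of 10 genes that write, erase or read N6-methyladenosine (m6A) on RNA was measured in lung metastases of a mouse melanoma grown under diets that differ in methionine. The genes were taken by name from a list of m6A factors. They are the writers Mettl3, Mettl14 and Wtap, the erasers Fto and Alkbh5, and the readers Ythdf1, Ythdf2, Ythdf3, Ythdc1 and Ythdc2. All 10 symbols matched an Ensembl ID among the 37620 IDs in the deposited files, and all 10 were among the 16001 genes that passed the filter on low counts. The tumours came from B16-F10.1, a pigmented melanoma line that forms lung colonies when injected into the bloodstream. The hosts were male C57BL/6J mice, and neither tumour nor host is described with an engineered allele. Per the study's design text, mice aged 8 weeks received 100000 cells, and 21 days later they began 2 weeks on a test diet. The groups were a methionine deficient diet (labelled 0%, n = 3), a methionine restricted diet (25%, n = 3), a methionine adequate diet (n = 3) and a methionine supplemented diet (300%, n = 6). The supplemented group is named by the sample labels and not by the design text, and no source used here gives its age, cell number or times. Nothing in the labels ties a library to a mouse of its own, so the p-values reflect only how these 15 samples vary, which may be technical.

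m6A is the most common internal mark on messenger RNA. A complex built around the METTL3 and METTL14 proteins adds it, with the methyl group taken from S-adenosylmethionine, which cells make from methionine. FTO and ALKBH5 can remove it, and proteins with a YTH domain bind it and affect how the marked RNA is spliced, translated or degraded. The libraries measured the RNA levels of these genes and not the mark itself.

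The pieces of sequence that the 3 close paralogs of the Ythdf family share are shown because reads from such pieces could not be assigned to a gene. They are the longest exact runs common to each pair, searched in the longest coding transcript of each gene in the GENCODE M21 annotation. That annotation is on build GRCm38, which is not the build the submitters name. Each run lies in coding exon 4 of both genes, and the letters are given 5′ to 3′ along the RNA in the DNA alphabet.

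Ythdf1 and Ythdf2 (chr2:180911610-180911631, minus strand, and chr4:132205103-132205124, minus strand): attgctagcaagcctgcaaaac

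Ythdf1 and Ythdf3 (chr2:180911141-180911157, minus strand, and chr3:16204954-16204970, plus strand): aagagctattctgagga

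Ythdf2 and Ythdf3 (chr4:132205011-132205027, minus strand, and chr3:16204514-16204530, plus strand): atattggaacttgggat

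The runs are 22, 17 and 17 bases long, and no stretch of 50 bases was shared by any pair. A read of 50 bases or more without errors therefore fits 1 of the 3 genes in the transcripts searched. Other transcripts of these genes were not searched. Another neighbour matters for Mettl3, whose gene overlaps Tox4 on the opposite strand by 1561 bases in the same annotation. Tox4 held 28635 counts over the 15 libraries. The library kit marks strand, per the labels' protocols, but the strand setting of the counting is not given, so reads from the overlap may not be told apart.

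The libraries held 13107679 to 29994264 counts. The tissue label was checked against markers: all 10 melanocyte markers were detected in every diet, with a summed level between 17732 and 34326 CPM (counts scaled to a common library total). Normal lung was present to a varying degree. The 8 alveolar type 2 markers, all detected in each diet, summed to 195 to 6128 CPM in deficient, 75.7 to 578 CPM in restricted, 223 to 952 CPM in adequate and 46.0 to 1695 CPM in supplemented libraries. Lamp3 was at 0 in a restricted library, and Sftpa1, Sftpd and Lamp3 were each at 0 in a supplemented library. Other cell types also varied by diet, with all listed markers detected in each diet. The 6 fibroblast markers summed to 645 to 850 CPM in deficient, 382 to 870 CPM in restricted, 275 to 428 CPM in adequate and 324 to 1243 CPM in supplemented libraries. The 8 macrophage markers summed to 265 to 416 CPM in deficient, 202 to 290 CPM in restricted, 156 to 261 CPM in adequate and 161 to 342 CPM in supplemented libraries. In both lists every deficient library lay above every adequate one. The 6 red cell (erythroid) markers summed to 339 to 4411 CPM in deficient, 186 to 468 CPM in restricted, 792 to 1166 CPM in adequate and 256 to 1381 CPM in supplemented libraries, so every restricted library lay below every adequate one. The 8 endothelial markers summed to 252 to 2016 CPM in deficient, 246 to 354 CPM in restricted, 148 to 273 CPM in adequate and 183 to 537 CPM in supplemented libraries.

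3 libraries stood apart. Structural RNAs (ribosomal, small nuclear and similar) took 45.8% of the counts in adequate replicate 1, against 14.2% to 29.4% in the remaining 14 libraries. Muscle markers summed to 1375 CPM in supplemented replicate 5, which also had the lowest alveolar level, and the highest alveolar level was that of deficient replicate 3. In such bulk samples, fewer cells of a type and less RNA per cell cannot be told apart.

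Alkbh5 RNA was the most abundant of the 10 per transcript length and Ythdc2 RNA the least. In TPM, the deposited measure that corrects for transcript length, Alkbh5 averaged 20.2 ± 5.26 TPM (SD, n = 15) and lay above every other gene of the set in all 15 libraries. Below it came Wtap at 9.59 ± 3.09 TPM, Ythdf2 at 8.58 ± 2.05 TPM, Fto at 8.39 ± 2.60 TPM and Mettl3 at 7.94 ± 3.10 TPM. Ythdf1 at 7.32 ± 2.52 TPM, Ythdc1 at 6.63 ± 2.10 TPM and Ythdf3 at 5.79 ± 1.58 TPM followed. These 7 formed a band without a fixed order: Mettl3 exceeded Ythdf1, the next in the order, in 6 of 15 libraries, and Wtap exceeded Ythdf2 in 10 of 15. Mettl14, the partner of Mettl3 in the complex, stood at 1.63 ± 0.653 TPM and was below Ythdf3 in all 15 libraries. Ythdc2 stood at 0.647 ± 0.221 TPM and was below Mettl14 in all 15.

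**Figure D1:**
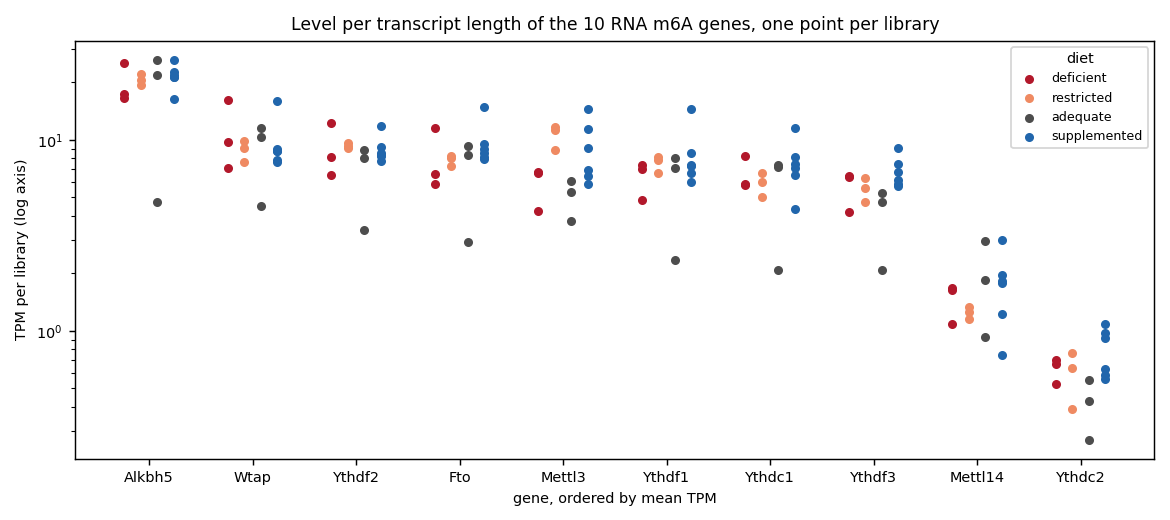
TPM on a log axis for each of the 10 genes, with a point for each library, coloured by diet, and genes ordered by mean TPM. Alkbh5 lies highest at a mean of 20.2 TPM, and Mettl14 and Ythdc2 lie apart at the low end at 1.63 and 0.647 TPM. Adequate replicate 1, where structural RNA took 45.8% of counts, is the lowest adequate point of each gene.

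TPM is a share of all transcripts and so falls where structural RNA is abundant, so diets were compared on CPM scaled by TMM (trimmed mean of M values). None of the 10 genes passed in any of the 5 comparisons of diets or in the test of any difference among the 4 diets, by edgeR's quasi-likelihood test with Benjamini-Hochberg adjustment over the 16001 genes at 0.05. Across all genes edgeR called 0.00625% between deficient and adequate libraries and 0.00625% for any difference, both a single gene, and 0% in the other 4 comparisons. DESeq2 and limma-voom called 0 of the 10 as well. Over all genes with an adjusted p, DESeq2 called 3.84% in deficient, 1.16% in restricted and 1.66% in supplemented against adequate, 0.0565% in deficient against restricted, 0% in deficient against supplemented and 2.05% for any difference. Limma-voom called 0.00625% in deficient against adequate, 0.0187% in supplemented against adequate and 0% elsewhere. At an unadjusted p under 0.05, the 10 genes gave 1 in deficient against adequate (15.1% of all genes), 2 in restricted against adequate (9.17%), 1 in supplemented against adequate (9.77%), 1 in deficient against restricted (7.44%) and 0 in deficient against supplemented (5.45%). For any difference among diets, 1 of the 10 had an unadjusted p under 0.05, against 9.47% of all genes. The genes with an unadjusted p under 0.05 were all writers. The 3 comparisons with the adequate diet share the same 3 adequate libraries.

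**Figure D2:**
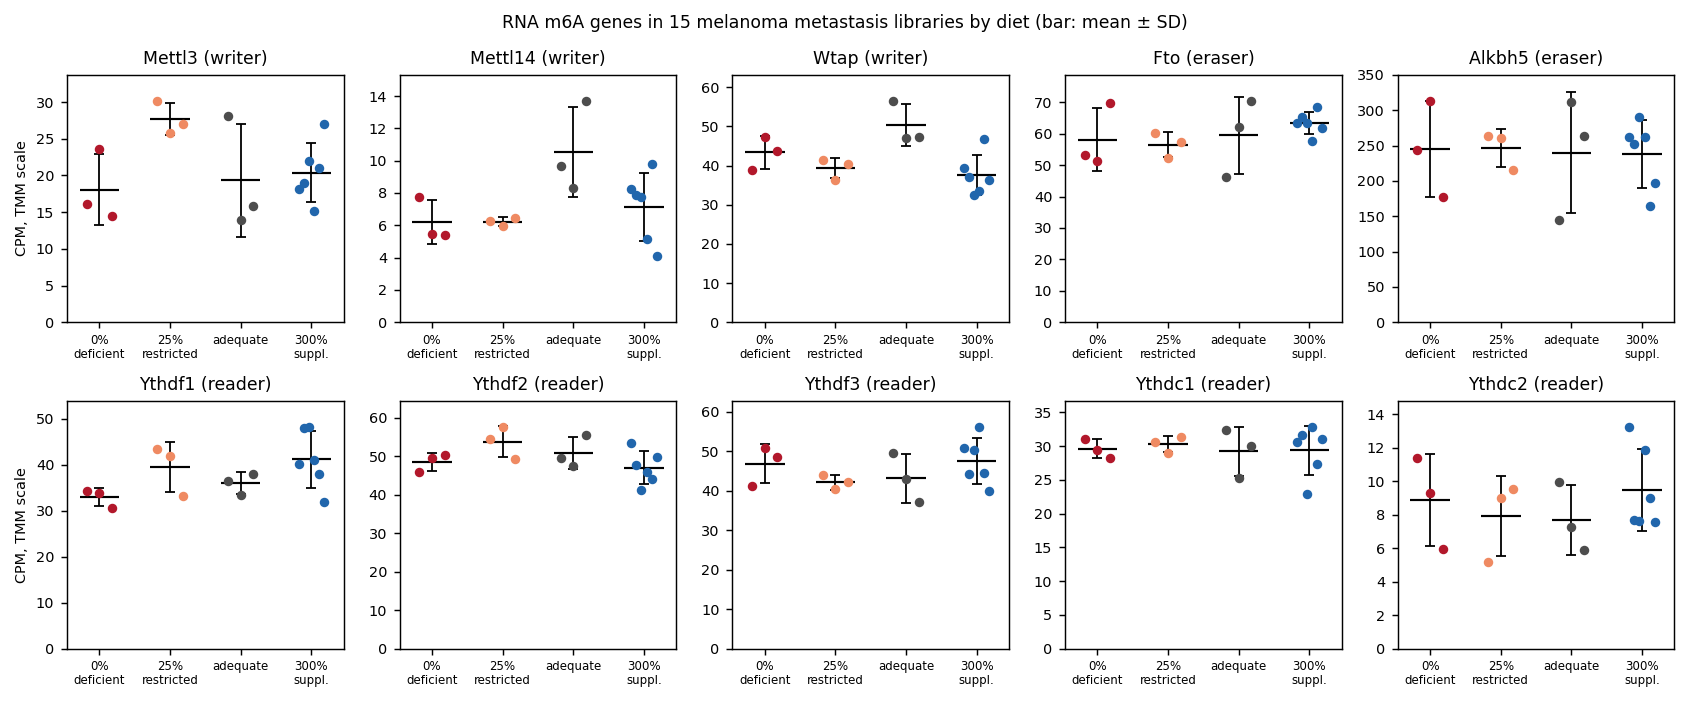
CPM of each gene by library, on an axis that starts at 0, with diets in order of methionine and a bar for the mean and SD (n = 3, 3, 3 and 6). Mettl14 in the adequate libraries, between 8.32 and 13.7 CPM, lies above all deficient and restricted libraries, and the diets overlap for each eraser and each reader.

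Mettl3 (ENSMUSG00000022160) encodes the catalytic subunit of the writer complex. It stood at 16.1, 23.6 and 14.5 CPM in the deficient libraries and at 30.1, 25.8 and 27.1 CPM in the restricted ones. It stood at 28.2, 14 and 15.8 CPM in the adequate libraries, and at 15.1 to 27 CPM with a median of 20 CPM in the supplemented ones. All 3 restricted libraries lay above all 3 deficient ones, while the adequate group was split, with replicate 1, the library rich in structural RNA, near the restricted level. The log2 fold change of deficient against restricted was -0.62 (SE 0.276, 95% interval -1.20 to -0.03, edgeR adjusted p = 0.663). Non-overlap of these groups in either direction was seen for 11.1% of all genes. Restricted against adequate gave 0.52 (SE 0.276, interval -0.07 to 1.11, edgeR adjusted p = 0.614), and 0.88 without adequate replicate 1 (edgeR adjusted p = 0.294). Deficient against adequate gave -0.095 (SE 0.276), and 0.27 without adequate replicate 1. The sign of this value turned in 2 of 6 fits that each left out a single library. Supplemented against adequate gave 0.078 (SE 0.239), or 0.44 without adequate replicate 1 and -0.11 without adequate replicate 2. Deficient against supplemented gave -0.17 (SE 0.240). Tox4, the overlapping gene, had log2 fold changes of -0.35 (SE 0.159) in deficient against restricted and 0.080 (SE 0.159) in restricted against adequate. Whether reads of Tox4 enter the Mettl3 values was not tested.

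Mettl14 (ENSMUSG00000028114) encodes the partner that holds the RNA substrate. It was measured at 7.77, 5.47 and 5.4 CPM in the deficient libraries, at 6.25, 5.95 and 6.47 CPM in the restricted ones and at 9.64, 8.32 and 13.7 CPM in the adequate ones. The supplemented libraries ran between 4.11 and 9.79 CPM with a median of 7.81 CPM. Every deficient and every restricted library lay below every adequate one, and the supplemented libraries spanned both levels. Non-overlap in either direction was found for 15.9% of all genes in deficient against adequate and for 16.6% in restricted against adequate. The log2 fold change of deficient against adequate was -0.76 (SE 0.330, interval -1.46 to -0.06, edgeR adjusted p = 0.292). That of restricted against adequate was -0.76 (SE 0.331, interval -1.46 to -0.06, edgeR adjusted p = 0.507), and that of supplemented against adequate was -0.56 (SE 0.279, interval -1.15 to 0.03, edgeR adjusted p = 0.535). Without adequate replicate 3, the highest library, these 3 values were -0.53, -0.53 and -0.33. The deficient and restricted groups did not separate (-0.00025, SE 0.333, interval -0.71 to 0.71). Deficient against supplemented gave -0.20 (SE 0.288). The fibroblast and macrophage markers also lay higher in every deficient library than in the adequate ones, and the red cell markers lower in every restricted one. Their part in the Mettl14 values was not tested. Mettl14 had few reads, with 75 counts in its lowest library, supplemented replicate 6 (95% Poisson interval 59.0 to 94.0, counting error only).

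Wtap (ENSMUSG00000060475) encodes the adaptor that brings the METTL3 and METTL14 pair to nuclear speckles. Its level was 39.0, 47.2 and 43.8 CPM in the deficient libraries, 41.4, 36.4 and 40.3 CPM in the restricted ones and 56.4, 47.0 and 47.2 CPM in the adequate ones. In the supplemented libraries it ran between 32.5 and 46.7 CPM with a median of 36.7 CPM. All 6 supplemented and all 3 restricted libraries lay below the 3 adequate ones, although supplemented replicate 5, at 46.7 CPM, was close to the lowest adequate library at 47.0 CPM. Non-overlap in either direction was seen for 4.38% of all genes in supplemented against adequate and for 16.6% in restricted against adequate. The log2 fold change of supplemented against adequate was -0.42 (SE 0.138, interval -0.71 to -0.13, edgeR adjusted p = 0.376), and its unadjusted p of 0.00804 was the smallest of the 10 genes in any comparison. Without supplemented replicate 5 it was -0.49 and without adequate replicate 1 it was -0.34. Restricted against adequate gave -0.35 (SE 0.162, interval -0.70 to -0.01, edgeR adjusted p = 0.530). The part of the red cell markers, lower in every restricted library, in this value was not tested. Deficient against adequate gave -0.21 (SE 0.162), with overlapping libraries. Deficient against restricted gave 0.14 (SE 0.162) and deficient against supplemented 0.21 (SE 0.139). In the test of any difference among the 4 diets, Wtap had the smallest edgeR adjusted p of the 10, 0.518, followed by Mettl14 at 0.580 and Mettl3 at 0.642.

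Ratios within a library do not depend on how libraries are scaled to each other, and those of the writers are given as a description. The log2 ratio of Mettl14 over Mettl3 CPM averaged -1.53 ± 0.54 in deficient, -2.15 ± 0.11 in restricted, -0.83 ± 0.67 in adequate (SD, n = 3 each) and -1.55 ± 0.60 in supplemented libraries (SD, n = 6). All 3 restricted libraries, between -2.27 and -2.06, lay below the adequate ones, which ran between -1.55 and -0.21. In linear terms, Mettl14 held 0.207 to 0.239 of the Mettl3 CPM in restricted libraries and 0.342 to 0.867 of it in adequate ones. The log2 ratio of Wtap over Mettl3 averaged 1.29 ± 0.30 in deficient, 0.51 ± 0.06 in restricted, 1.44 ± 0.39 in adequate and 0.89 ± 0.32 in supplemented libraries. The restricted libraries were the most alike in both ratios. In 3 against 3 libraries an exact permutation test cannot go below 0.1, so no test was made of these ratios. Per length (TPM) the ratios were lower, with Mettl14 over Mettl3 at -3.08 ± 0.11 in restricted and -1.53 ± 0.48 in adequate libraries, and the 2 groups again did not overlap. Wtap over Mettl3 per length lay below 0 in restricted libraries, at -0.26 ± 0.05. Its means were above 0 in deficient (0.84 ± 0.37), adequate (0.71 ± 0.43) and supplemented libraries (0.12 ± 0.37).

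**Figure D3:**
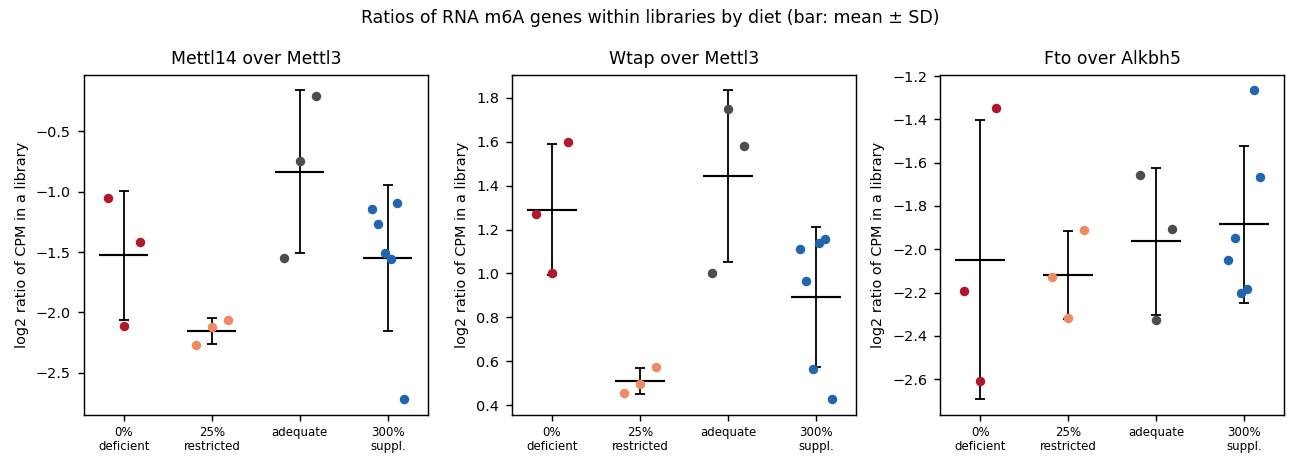
Log2 ratio of CPM within each library for Mettl14 over Mettl3, Wtap over Mettl3 and Fto over Alkbh5, with diets in order of methionine, a point for each library and a bar for the mean and SD. The restricted libraries lie close together for both writer ratios, at -2.15 ± 0.11 and 0.51 ± 0.06, and supplemented replicate 6 lies lowest for Mettl14 over Mettl3.

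Alkbh5 (ENSMUSG00000042650), a nuclear m6A demethylase, had nearly the same mean in every diet and a wide spread within each. It stood at 244, 313 and 177 CPM in the deficient libraries, at 263, 260 and 215 CPM in the restricted ones and at 145, 311 and 264 CPM in the adequate ones. The supplemented libraries ran between 165 and 291 CPM with a median of 257 CPM. The diets overlapped, and the low adequate value was that of replicate 1. The 5 log2 fold changes lay between -0.012 and 0.039 (edgeR adjusted p = 0.974 in deficient against adequate), with an interval of -0.57 to 0.62 in that comparison. Without adequate replicate 1 the log2 fold changes against adequate were -0.24 for deficient, -0.24 for restricted and -0.29 for supplemented libraries. Without adequate replicate 2 they were 0.26, 0.27 and 0.22 in the same order.

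Fto (ENSMUSG00000055932), the other demethylase, which also removes a related methyl mark beside the messenger RNA cap, was at 53.4, 51.3 and 69.8 CPM in the deficient libraries. It was at 60.1, 52.2 and 57.3 CPM in the restricted ones and at 46.1, 62.0 and 70.4 CPM in the adequate ones. In the supplemented libraries it ran between 57.8 and 68.5 CPM with a median of 63.3 CPM. All diets overlapped, and the log2 fold changes were -0.034 for deficient, -0.074 for restricted and 0.090 for supplemented against adequate libraries (SE 0.170, 0.170 and 0.148). The interval for deficient against adequate was -0.40 to 0.33. The signs against adequate rested on single libraries: without adequate replicate 3 the deficient value was 0.10 and the restricted value 0.066, and without adequate replicate 1 the supplemented value was -0.076.

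Fto was the only gene of the set whose relation to the structural RNA share of a library passed after adjustment. Over the 15 libraries, log2 CPM of Fto fell as that share rose, with Pearson's r = -0.770 (permutation p = 0.00017, adjusted p = 0.0034) and Spearman's rho = -0.857 (permutation p = 0.00014, adjusted p = 0.0028), two-sided. The family held 20 relations, of the 10 genes with the structural share and with the level of the alveolar markers, and no other passed at 0.05 after adjustment. Without adequate replicate 1 and supplemented replicate 5, the libraries farthest in the structural share, r was -0.640 (n = 13). Taken as deviations from the diet means r was -0.847, and within the 6 supplemented libraries it was -0.734. Adequate replicate 1 had the lowest Fto level, 46.1 CPM, at 45.8% structural RNA, and deficient replicate 3 had 69.8 CPM at 18.8%. Of the 16001 genes, 171 (1.07%) had an r with the share as low as the -0.770 of Fto, or lower. Ythdc1 and Ythdc2 rose with the share, at rho = 0.543 and 0.529 (permutation p = 0.0391 and 0.0451, adjusted p = 0.301 for both). As deviations from the diet means, r was 0.586 for Mettl3, 0.553 for Ythdc1 and 0.532 for Ythdc2. For the remaining genes apart from Fto it lay between -0.380 and 0.293. Against the alveolar level, the lowest r was that of Mettl14 (r = -0.397, permutation p = 0.143, adjusted p = 0.680; rho = -0.496, permutation p = 0.0624, adjusted p = 0.312; r = -0.520 without supplemented replicate 5 and restricted replicate 2).

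**Figure D4:**
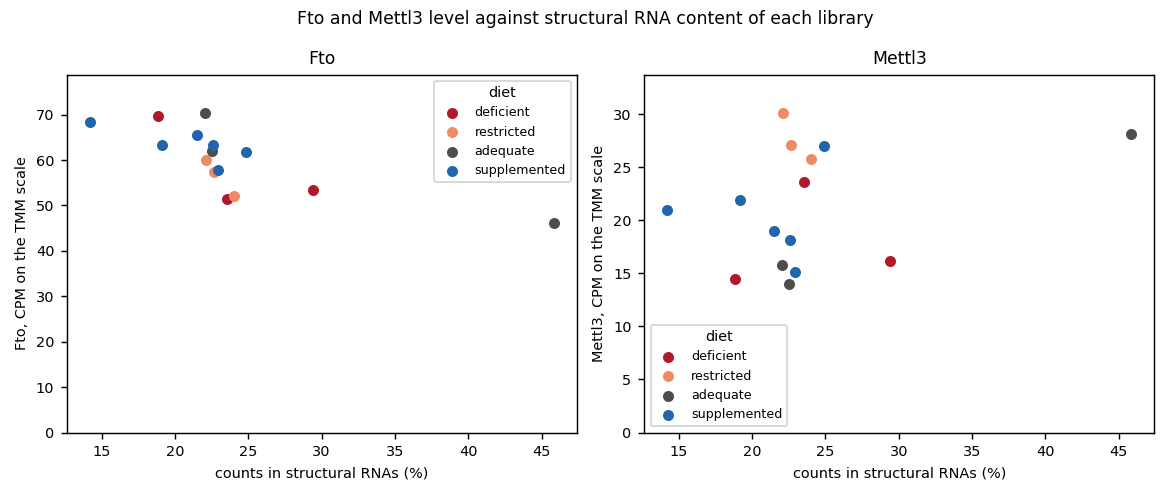
Fto and Mettl3 levels in CPM on the TMM scale against the percent of counts from structural RNA, a point for each library coloured by diet. Fto is lower where the share is higher (r = -0.770 with log2 CPM, n = 15), and adequate replicate 1 stands alone at 45.8%.

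The cytosolic readers of the Ythdf family varied little between libraries. Ythdf2 (ENSMUSG00000040025), which promotes decay of marked messenger RNA, had the smallest spread within diets of the 10 genes, a pooled SD of 0.116 in log2 CPM. The median SD over all genes tested was 0.420, but their median level was lower, 3.85 in mean log2 CPM against 5.63 for Ythdf2. Ythdf2 was not compared with genes of a like level alone. Its level was 46.0, 49.5 and 50.4 CPM in the deficient libraries, 54.5, 57.6 and 49.4 CPM in the restricted ones and 49.5, 47.6 and 55.6 CPM in the adequate ones, with 41.3 to 53.5 CPM and a median of 46.9 CPM in the supplemented ones. The diets overlapped, and the log2 fold changes were -0.066 for deficient, 0.081 for restricted and -0.11 for supplemented against adequate libraries (SE 0.142, 0.142 and 0.122). The 95% interval of deficient against adequate was -0.37 to 0.24, a fold between 0.776 and 1.18.

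Ythdf1 (ENSMUSG00000038848), tied to translation of marked messenger RNA, was at 34.3, 33.9 and 30.7 CPM in the deficient libraries and at 43.4, 41.9 and 33.2 CPM in the restricted ones. It was at 36.5, 33.3 and 38.1 CPM in the adequate libraries and at 31.9 to 48.2 CPM with a median of 40.6 CPM in the supplemented ones. The deficient group lay at the low end, overlapping each other diet. The lowest log2 fold change was that of deficient against supplemented, -0.32 (SE 0.152, interval -0.64 to 0.00, edgeR adjusted p = 0.870), where 1.91% of all genes had libraries that do not overlap and none of the 10 did. Deficient against restricted gave -0.26 (SE 0.173) and deficient against adequate -0.13 (SE 0.173). Restricted against adequate gave 0.13 (SE 0.173) and supplemented against adequate 0.19 (SE 0.151).

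Ythdf3 (ENSMUSG00000047213), which acts together with its paralogs, was at 41.3, 50.8 and 48.7 CPM in the deficient libraries and at 44.1, 40.4 and 42.2 CPM in the restricted ones. It was at 49.5, 42.9 and 37.1 CPM in the adequate libraries and at 40 to 56.1 CPM with a median of 47.3 CPM in the supplemented ones. The groups overlapped in every comparison. Its log2 fold changes were 0.12 for deficient, -0.033 for restricted and 0.14 for supplemented against adequate libraries (SE 0.163, 0.163 and 0.142). Deficient against restricted gave 0.15 (SE 0.163). Compared with Ythdf1 in the same library, Ythdf3 had a log2 ratio of 0.51 ± 0.21 in deficient, 0.10 ± 0.21 in restricted, 0.26 ± 0.26 in adequate (SD, n = 3 each) and 0.22 ± 0.21 in supplemented libraries (SD, n = 6), all by CPM. Per length (TPM) the mean ratio lay below 0 in each diet. It was -0.18 ± 0.05 in deficient, -0.45 ± 0.07 in restricted and -0.46 ± 0.29 in adequate libraries (SD, n = 3 each). In supplemented libraries it was -0.25 ± 0.26 (SD, n = 6).

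Ythdc1 (ENSMUSG00000035851), the nuclear reader that takes part in splicing and export of marked RNA, had close means in the 4 diets. It averaged 29.6 ± 1.40 CPM in deficient, 30.3 ± 1.15 CPM in restricted, 29.2 ± 3.59 CPM in adequate (SD, n = 3 each) and 29.4 ± 3.64 CPM in supplemented libraries (SD, n = 6). The lowest library of all was supplemented replicate 3 at 23.0 CPM and the highest supplemented replicate 4 at 32.8 CPM. The 5 log2 fold changes lay between -0.035 and 0.052, and the interval of deficient against adequate, -0.33 to 0.36, corresponds to a fold between 0.798 and 1.28.

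Ythdc2 (ENSMUSG00000034653), a reader with an RNA helicase domain that is needed for meiosis in the mouse germline, had 88 counts in its lowest library, deficient replicate 3 (95% Poisson interval 70.6 to 108, counting error only). It stood at 11.4, 9.28 and 5.94 CPM in the deficient libraries, 5.20, 9.03 and 9.56 CPM in the restricted ones and 9.95, 7.27 and 5.87 CPM in the adequate ones. In the supplemented libraries it ran between 7.57 and 13.2 CPM with a median of 8.33 CPM. The groups overlapped, and the libraries of a diet differed more than the diets did. The log2 fold change of supplemented against adequate was 0.31 (SE 0.299, interval -0.33 to 0.94, edgeR adjusted p = 0.772), and that of deficient against adequate was 0.21 (SE 0.341, interval -0.52 to 0.93).

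**Figure D5:**
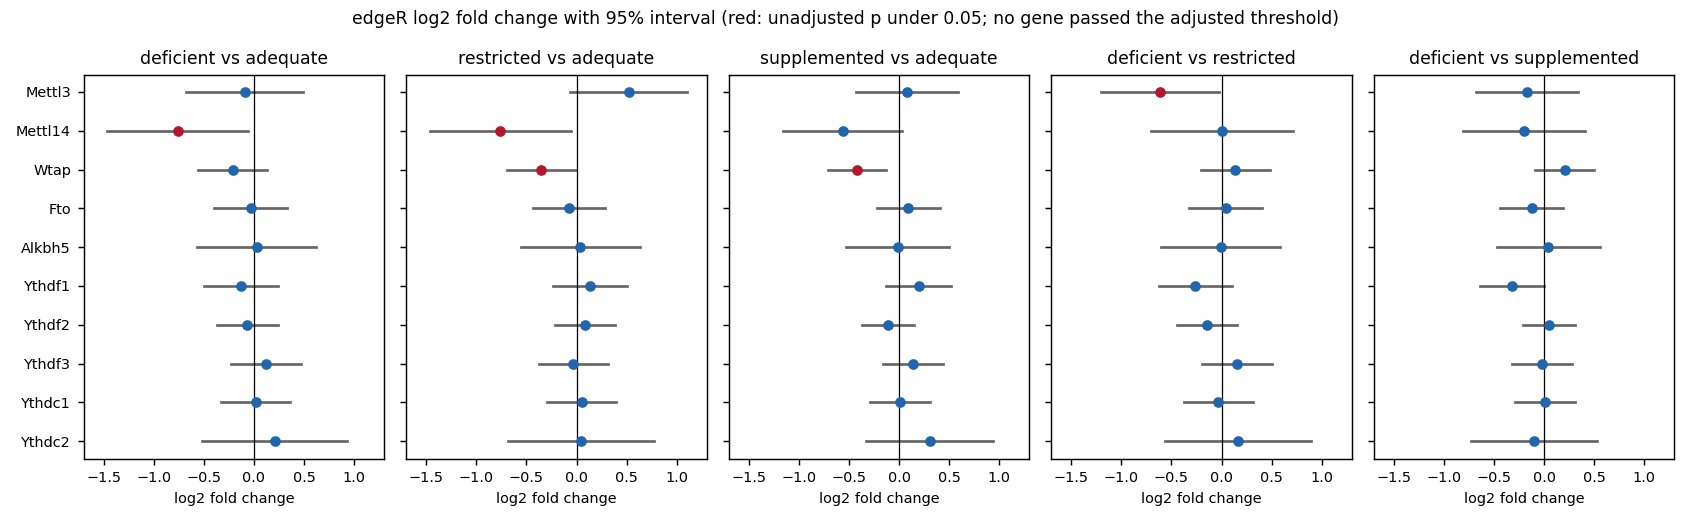
Log2 fold changes of the 10 genes in the 5 comparisons of diets, with 95% intervals from the edgeR fit and a line at 0. Mettl14 in deficient and in restricted against adequate, both at -0.76, lies farthest from 0, and no gene passed the adjusted threshold.

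Taken over the 10 genes, 4 of 10 log2 fold changes lay above 0 in deficient against adequate, with a median of -0.050, where the median of all genes tested was 0.036. In restricted against adequate 6 of 10 lay above 0 with a median of 0.040 (all genes 0.0046), and in supplemented against adequate 6 of 10 with a median of 0.044 (all genes 0.028). Deficient against restricted gave 4 of 10 and a median of -0.0045 (all genes 0.016), and deficient against supplemented 4 of 10 and a median of -0.060 (all genes 0.019). The 95% intervals of 9, 8, 9, 9 and 10 of the 10 genes lay within a 2-fold change in either direction in these 5 comparisons, in the order given. The exceptions were Mettl14 in the 3 comparisons with the adequate diet, and Mettl3 in restricted against adequate and in deficient against restricted. Within diets the pooled SD in log2 CPM was 0.116 to 0.183 for Ythdf2, Ythdc1, Wtap, Ythdf3, Fto and Ythdf1, and 0.339 to 0.405 for Mettl3, Mettl14, Alkbh5 and Ythdc2.

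RSEM also reports for each gene a mean transcript length weighted by isoform abundance, which changes when the estimated isoform mix does. For Mettl3 it was 1572, 1696 and 1294 bases in the deficient libraries, against 1280 to 1394 bases in the restricted, 1299 to 1394 bases in the adequate and 1198 to 1421 bases in the supplemented ones. Deficient replicates 1 and 2 thus held the longest values of all 15 libraries and deficient replicate 3 did not. For Fto the weighted length was 2791 bases in adequate replicate 1 and 3252 to 3613 bases in every other library. Wtap was shortest in deficient replicate 3, at 1612 bases, against 1959 to 2299 bases elsewhere. Ythdc2 had 6299 bases in every library. No test of these lengths was made.

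The remaining parts of the writer complex, taken as a list, were not called by edgeR either, with 0 of 5 in any comparison. Over all genes edgeR called 0.00625% in deficient against adequate and for any difference, and 0% elsewhere. For this list and those below, calls by DESeq2 and limma-voom are not given here. Unadjusted p was under 0.05 for 0, 1, 2, 0 and 0 of the 5 in the 5 comparisons in the order above, against 15.1%, 9.17%, 9.77%, 7.44% and 5.45% of all genes. Rbm15, an RNA-binding subunit that guides the complex, stood at 28.6 ± 1.47 CPM in deficient, 31.1 ± 1.08 CPM in restricted, 22.7 ± 3.54 CPM in adequate (SD, n = 3 each) and 28.8 ± 2.44 CPM in supplemented libraries (SD, n = 6). Its log2 fold change of restricted against adequate was 0.45 (SE 0.155, edgeR adjusted p = 0.407), with all restricted libraries above all adequate ones, a non-overlap that 16.6% of all genes showed in either direction. All deficient libraries, between 27.2 and 30.1 CPM, also lay above all adequate ones, between 19.9 and 26.7 CPM. Non-overlap in that comparison was found for 15.9% of all genes in either direction. Cbll1, which encodes the subunit HAKAI, had 0.55 (SE 0.259, edgeR adjusted p = 0.510) in supplemented against adequate libraries, and Virma, the scaffold of the complex, 0.11 (SE 0.122). Rbm15b was close to 0 in many libraries, with at most 1.3 CPM.

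Of 6 genes for other m6A methyltransferases and their partner, edgeR called 0 in any comparison, where it called at most 0.00625% of all genes. Mettl16, which methylates the U6 small nuclear RNA and the messenger RNA of Mat2a, averaged 23.1 ± 3.01 CPM in deficient, 24.7 ± 3.69 CPM in restricted, 14.6 ± 3.82 CPM in adequate (SD, n = 3 each) and 20.5 ± 3.34 CPM in supplemented libraries (SD, n = 6). All deficient and all restricted libraries lay above all adequate ones, with log2 fold changes of 0.66 (SE 0.222, edgeR adjusted p = 0.204) and 0.75 (SE 0.222, edgeR adjusted p = 0.362). Non-overlap in either direction was found for 15.9% and 16.6% of all genes in these comparisons. Mat2a, the enzyme gene that supplies S-adenosylmethionine, averaged 75.9 ± 33.4 CPM in deficient, 104 ± 8.13 CPM in restricted, 107 ± 25.7 CPM in adequate (SD, n = 3 each) and 99.1 ± 17.1 CPM in supplemented libraries (SD, n = 6). Its log2 fold change of deficient against restricted was -0.45 (SE 0.276, edgeR adjusted p = 0.762). Trmt112, an activating partner of several methyltransferases, had 0.29 (SE 0.179) in restricted against adequate libraries, and Pcif1, which methylates the adenosine next to the cap, -0.30 (SE 0.228) in deficient against adequate.

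Among 10 readers without a YTH domain edgeR called 0 in any comparison, where it called at most 0.00625% of all genes. Igf2bp2, which stabilises bound messenger RNA, stood at 6.40 ± 4.01 CPM in deficient, 2.71 ± 1.55 CPM in restricted, 3.54 ± 1.5 CPM in adequate (SD, n = 3 each) and 2.78 ± 0.84 CPM in supplemented libraries (SD, n = 6). The deficient libraries spanned 1.84 to 9.39 CPM, and the log2 fold change of deficient against supplemented was 1.2 (SE 0.510, edgeR adjusted p = 0.870). Prrc2a had 0.61 (SE 0.291, edgeR adjusted p = 0.518) in supplemented against adequate libraries, where its lowest adequate value was 116 CPM. Hnrnpa2b1, a nuclear RNA-binding protein gene, had -0.38 (SE 0.250) in deficient against adequate libraries.

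For each of the 10 genes, the genes closest in pattern were found by Pearson's r of log2 CPM deviations from diet means over the 15 libraries, among 9574 genes with a mean log2 CPM of at least 3 (9575 for Mettl14). These values are a description, since libraries share depth and composition. Mettl3 was closest to Ndufa8 (r = 0.904), Tufm (0.896) and Mrpl34 (0.892), genes of mitochondrial respiration and translation. Mettl14 was closest to Dnajc21 (0.879), Idi1 (0.854) and Eif3b (0.849), and its r with Mettl3 was -0.165. Wtap was closest to Heatr3 (0.922), Haus2 (0.914) and Ttc4 (0.914). Fto was closest to Pprc1 (0.942), Ccdc88c (0.938) and Mark2 (0.936), and Alkbh5 to Kdm4b (0.959), Cnnm4 (0.935) and Kif21b (0.931). Among the readers, Ythdf1 was closest to Tpd52 (0.870), Ppme1 (0.861) and Atp6v1b2 (0.856), and Ythdf2 to Prep (0.867), Gpatch2l (0.860) and Pigb (0.785). Ythdf3 was closest to Tbp (0.790), Sec62 (0.750) and the pseudogene Tpt1-ps3 (0.742). Ythdc1 was closest to Zfand1 (0.864), Rtp4 (0.850) and Tada1 (0.832), and Ythdc2 to Copz2 (0.893), Ss18l2 (0.893) and Lars (0.867). None of the 3 genes nearest to a member was another of the 10. Mettl14, at a mean log2 CPM of 2.86, lay under the limit of 3 and so could not be named for another member.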

How the data were processed

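RNA-seq of 15 melanoma metastasis samples from 4 diets was used. Per the labels' protocols, total RNA was depleted of rRNA and the library kit marks strand. The submitters' processing notes name Bowtie2 2.2.9 and RSEM 1.30, list edgeR, and give NCBIM37 as the build. For the annotation release, the strand setting and any filter on reads the answer is: not given in the sources used here. The deposited values are expected counts per gene, TPM and a weighted transcript length, per the file headers. Expected counts were rounded to whole numbers.

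Genes were kept with filterByExpr, leaving 16001, and scaled by TMM. Diets were compared with the quasi-likelihood test of edgeR 4.0.16 (R 4.3.3) in a single fit of 15 libraries with a mean per diet, 11 residual degrees of freedom and a biological coefficient of variation of 0.461. It gave 5 comparisons and a test of any difference, adjusted by Benjamini-Hochberg at 0.05. Intervals are at 95%. Correlations used 100000 permutations. CPM are on the TMM scale, with a prior count of 2 for log2 CPM. Alternatives were RLE scaling, no filter, DESeq2 1.42.0, limma-voom (limma 3.58.1), fits of 2 diets, a lung covariate, and leaving out libraries. Of the IDs, 32897 had a symbol in the table of gene names at hand, and structural RNA was summed over 3017 IDs, of which 2 short abundant ones have no symbol.

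No library repeated another: over 24 pairs within diets, chi-square per degree of freedom was 27.5 to 339. In simulated data with 100 genes changed at each fold, edgeR recovered 15% of 2-fold and 52% of 4-fold changes between deficient and adequate libraries, with 2 unchanged genes called, and 27% and 62% between supplemented and adequate libraries, with 4.

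The 10 members and the other lists were chosen with earlier results of these data known. From each other list the 3 genes with the smallest p for any difference are named, with Mat2a, and for each member the 3 genes closest in pattern. Tox4 and Rbm15b were added after values were seen. Ythdc2 sequence was not used here.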

Additional observations from a re-analysis of the deposited data

Results flagged for a closer look

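In 25 groups of 6 supplemented libraries, for levels, ratios and transcript lengths of the 10 genes, 2 values lay far from the rest of their group by Dixon's test, which flags about 1 in 20 groups by chance. Both belong to supplemented replicate 6. Its log2 ratio of Mettl14 over Mettl3 was -2.72, against -1.55 to -1.10 in the other 5 supplemented libraries, where Mettl14 rested on 75 counts. Its weighted Alkbh5 transcript length was 5594 bases, against 5680 to 5730 bases.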

How the results depend on the processing

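None of the 10 genes was called under any alternative run, and the smallest adjusted p they reached was 0.118, without the 3 libraries that stood apart (0.141 with DESeq2). DESeq2 gives no adjusted p for Mettl14 and Ythdc2 in supplemented against adequate. No paired analysis was possible because the labels give no replicate numbers that groups share.

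The count over all genes moved. DESeq2 called 588 genes in deficient, 131 in restricted and 137 in supplemented against adequate, 9 in deficient against restricted and 270 for any difference. Limma-voom called 3 in supplemented against adequate and 0 for any difference. With the lung covariate, edgeR called 0 in deficient and 34 in restricted against adequate, and 2 for any difference. Without a filter it called 0 in deficient against adequate and 8 for any difference, and with only the 2 diets compared 0 in deficient against adequate. Without the 3 libraries it called 5 in deficient, 66 in restricted and 2 in supplemented against adequate, and 3 for any difference. Leaving out single libraries gave 0 to 4 in deficient against adequate (4 without adequate replicate 1 and 0 without any of the other 5), 0 to 5 in restricted against adequate (5 without adequate replicate 1 and 2 without adequate replicate 3), and 0 to 2 for any difference (2 without supplemented replicate 3, and 0 without adequate replicate 1, deficient replicate 1, supplemented replicate 4 or any restricted library).

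Log2 fold changes near 0 changed sign, and the cause was not tested. In deficient against restricted, Mettl14 was 0.033 with DESeq2, 0.030 with RLE, 0.032 with limma-voom, 0.21 with the lung covariate, 0.0063 with 2 diets alone and 0.11 without the 3 libraries. Alkbh5 there was 0.018 with DESeq2 and 0.018 with RLE. Fto in deficient against adequate was 0.0011 with DESeq2 and 0.0032 with RLE. With RLE, Ythdf3 in deficient against supplemented was 0.00026, and with limma-voom, Alkbh5 in supplemented against adequate was 0.037. Ythdc1 was -0.0014 in deficient against supplemented with the lung covariate, and -0.015 in supplemented against adequate with 2 diets alone. Without the 3 libraries, deficient against adequate was 0.41 for Mettl3 and -0.054 for Alkbh5. Restricted against adequate was -0.25 for Alkbh5 and 0.053 for Ythdf3, and supplemented against adequate was -0.092 for Fto. Deficient against restricted was -0.095 for Fto, 0.19 for Alkbh5 and 0.012 for Ythdc1, and deficient against supplemented was 0.0030 for Mettl14 and 0.11 for Ythdc2.

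Leaving out single libraries turned 54 of 360 values. In deficient against adequate the ranges were -0.24 to 0.26 for Alkbh5, -0.20 to 0.10 for Fto, -0.34 to 0.27 for Mettl3, -0.078 to 0.088 for Ythdc1, -0.055 to 0.43 for Ythdc2 and -0.11 to 0.0018 for Ythdf2. In restricted against adequate the ranges were -0.24 to 0.27 for Alkbh5, -0.24 to 0.066 for Fto, -0.041 to 0.12 for Ythdc1, -0.12 to 0.28 for Ythdc2 and -0.13 to 0.058 for Ythdf3. In supplemented against adequate the ranges were -0.29 to 0.22 for Alkbh5, -0.076 to 0.23 for Fto, -0.11 to 0.44 for Mettl3 and -0.085 to 0.075 for Ythdc1. In deficient against restricted the ranges were -0.23 to 0.18 for Alkbh5, -0.11 to 0.12 for Fto, -0.20 to 0.091 for Mettl14 and -0.058 to 0.38 for Ythdc2. In deficient against supplemented the ranges were -0.18 to 0.23 for Alkbh5, -0.052 to 0.044 for Ythdc1, -0.33 to 0.12 for Ythdc2 and -0.085 to 0.050 for Ythdf3. Comparisons of a gene not given a range here turned under none of these. Among them were Wtap and Ythdf1 in every comparison, and Ythdf2 in all but deficient against adequate. Mettl14 against adequate, and Mettl3 in restricted against adequate and deficient against restricted, were also among them. The relation of Fto to structural RNA, under RLE scaling chosen after seeing the data, had r = -0.754. Mettl14 and Ythdc2, the genes with the fewest counts, had pooled SDs within diets of 0.373 and 0.405 in log2 CPM. That of Alkbh5, with 2305 counts in its lowest library, was 0.375. The part of depth in these spreads was not tested.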

Other observations

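Enzymes and partners for other RNA methyl marks were looked at as a further list of 18 genes, of which 17 were tested (Fbll1 did not pass the filter). EdgeR called 0 of them in any comparison, where it called at most 0.00625% of all genes. In deficient, restricted and supplemented against adequate libraries, 15 of 17 log2 fold changes lay below 0 each time, with medians of -0.49, -0.41 and -0.27, against medians of 0.036, 0.0046 and 0.028 over all genes tested. The 3 comparisons share the adequate libraries. Without adequate replicate 1, 14, 13 and 12 of 17 lay below 0, with medians of -0.33, -0.31 and -0.19. In deficient against restricted 15 of 17 lay below 0 with a median of -0.079, but without the 3 libraries that stood apart 5 of 17 did, with a median of 0.088.

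Alkbh1, which encodes a demethylase of transfer RNA and mitochondrial RNA, had the smallest p of the list for any difference among diets (edgeR adjusted p = 0.415). It averaged 10.7 ± 2.85 CPM in deficient, 18.1 ± 2.54 CPM in restricted, 25.2 ± 3.72 CPM in adequate (SD, n = 3 each) and 16.6 ± 5.62 CPM in supplemented libraries (SD, n = 6). All deficient libraries lay below all restricted and all adequate ones, and all restricted libraries, at most 20.8 CPM, lay below all adequate ones, at least 21.2 CPM. The log2 fold change of deficient against adequate was -1.23 (SE 0.297, edgeR adjusted p = 0.149). Non-overlap in either direction was found for 11.1% of all genes in deficient against restricted, for 15.9% in deficient against adequate and for 16.6% in restricted against adequate. Trmt61a and Trmt6 encode the catalytic and partner subunits of a transfer RNA m1A methyltransferase. Both lay lower in all deficient and in all restricted libraries than in all adequate ones. Restricted libraries held at most 20.8 CPM of Trmt61a and 21.5 CPM of Trmt6, against at least 32.3 and 25.2 CPM in adequate ones. Trmt6 was also lower in all supplemented libraries, at most 24.98 CPM, while Trmt61a overlapped there. Trmt61a averaged 18.6 ± 5.61 CPM in deficient and 37.3 ± 6.64 CPM in adequate libraries (SD, n = 3 each), and its log2 fold change was -0.999 (SE 0.329; adjusted p = 0.197 by edgeR). Trmt6 averaged 16.6 ± 5.92 CPM in deficient and 30.2 ± 4.71 CPM in adequate libraries (SD, n = 3 each), and its log2 fold change was -0.86 (SE 0.257; adjusted p = 0.175 by edgeR). Of this list, 7 of 17 had deficient and adequate libraries that did not overlap, all with deficient lower, where 15.9% of all genes did not overlap in either direction. In restricted against adequate 9 of 17 did not overlap, 8 with restricted lower and 1 with restricted higher (16.6% of all genes). In supplemented against adequate 1 of 17 did not, with supplemented lower (4.38% of all genes).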
